A study of Rattus norvegicus with 18 samples.

Results

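The c-Jun N-terminal kinase (JNK) pathway was followed at the RNA level in testes of Wistar rats aged 8 weeks. Rats under chronic sleep restriction (CSR) were compared with controls. The set holds 9 genes, the kinases *Map2k7*, *Map2k4*, *Mapk8*, *Mapk9* and *Mapk10*, the scaffold *Mapk8ip1* and the transcription factors *Jun*, *Junb* and *Jund*. It was chosen by symbol around *Map2k7*, which had been selected on its difference between CSR and control in these libraries. The values of the members in that contrast are therefore given as a description, without a p-value, and nothing is read from their calls. By RefSeq accession, 5 of the 9 genes matched 8 of the 7016 transcripts in the table. *Mapk8*, *Mapk8ip1*, *Jun* and *Junb* matched none and are not analysed here.

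Each group had 3 RNA libraries, made from poly(A) RNA of whole testis, although the design text of the series counts 6 samples per group. The labels do not say how or for how long sleep was restricted, nor whether libraries stem from separate animals, so the spread given here may be technical. Control libraries 1 and 2 carry submitter codes that share all but the final digit, and at 0.932 their correlation of log2 values across tested transcripts was the highest of all pairs. Control library 3 correlated at 0.904 and 0.913 with those 2 libraries and at 0.911 to 0.921 with the CSR libraries. Median values were 3.69 to 3.97 FPKM (fragments scaled to transcript length and library size). CSR libraries had 1000 to 1415 transcripts listed at 0 and control libraries 275 to 423, and an exact 0 can be a failed estimate. Defining markers of testis were present: *Tnp1*, a transition protein of elongating spermatids, averaged 5826 FPKM over the libraries, *Sycp3* of spermatocytes 115, *Insl3* of Leydig cells 50.1 and *Cldn11* of Sertoli cells 20.5. In bulk tissue, fewer cells of a type and less RNA per cell cannot be told apart.

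JNK signalling is a kinase cascade. Stress-activated MAP3 kinases phosphorylate the dual-specificity kinases encoded by *Map2k4* and *Map2k7*, which together phosphorylate a tyrosine and a threonine in the activation loop of JNK. The JNK proteins, encoded by *Mapk8*, *Mapk9* and *Mapk10*, then phosphorylate Jun family proteins, which dimerise with each other or with Fos and ATF proteins and bind AP-1 and CRE elements. *Mapk10* has the narrowest expression of the JNK genes, with brain, heart and testis as its known sites, and loss of *Jund* in male mice is known to impair spermatogenesis. FPKM of RNA does not report kinase activity, which depends on phosphorylation.

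Promoter windows of 3 members are shown because *Map2k7* is the member around which the set was formed, and because *Mapk10* and *Jund* differed between libraries in opposite directions, as the values further on show. Each runs from 250 bases before to 50 after the gene start in RefSeq (build GRCr8), on the strand of the gene. *Map2k7* lies at chr12:7389017-7389316 on the plus strand, *Mapk10* at chr14:6802044-6802343 on the plus strand and *Jund* at chr16:18769722-18770021 on the minus strand. The transcripts measured may start elsewhere. Capitals mark matches, on either strand, to the CRE (TGACGTCA), the AP-1 element (TGACTCA), the GC box (GGGCGG), the CCAAT box (CCAAT) and the TATA box (TATAAA).
Map2k7: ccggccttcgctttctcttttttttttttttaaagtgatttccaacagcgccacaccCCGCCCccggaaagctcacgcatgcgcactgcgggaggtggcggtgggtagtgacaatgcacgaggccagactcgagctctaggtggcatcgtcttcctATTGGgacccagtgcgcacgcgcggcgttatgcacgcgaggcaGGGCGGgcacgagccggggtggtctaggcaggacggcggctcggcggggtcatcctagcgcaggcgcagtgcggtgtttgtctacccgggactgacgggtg
Mapk10: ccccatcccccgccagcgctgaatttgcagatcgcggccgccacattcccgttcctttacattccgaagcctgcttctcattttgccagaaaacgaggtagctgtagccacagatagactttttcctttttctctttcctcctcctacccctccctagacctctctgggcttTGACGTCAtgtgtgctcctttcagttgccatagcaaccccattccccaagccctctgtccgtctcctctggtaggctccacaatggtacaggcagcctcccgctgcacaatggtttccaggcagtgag
Jund: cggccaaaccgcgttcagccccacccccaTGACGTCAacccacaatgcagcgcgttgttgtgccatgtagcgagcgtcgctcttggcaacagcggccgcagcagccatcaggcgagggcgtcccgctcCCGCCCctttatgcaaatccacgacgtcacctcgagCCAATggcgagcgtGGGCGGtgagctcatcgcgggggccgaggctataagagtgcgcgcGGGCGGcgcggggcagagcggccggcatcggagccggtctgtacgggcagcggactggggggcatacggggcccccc

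The windows of *Mapk10* and *Jund* each held 1 CRE, with its first base at -78 from the start of *Mapk10* and at -221 from that of *Jund*, where -1 is the base before the start. Among all 33469 windows of this length, 1.83% held a CRE. The *Map2k7* window held 2 GC boxes and 1 CCAAT box, and the *Jund* window 3 GC boxes and 1 CCAAT box. GC boxes were found in 33.1% and CCAAT boxes in 37.5% of all windows. No letters of the AP-1 element, held by 4.63% of windows, or of the TATA box, held by 14.2%, were in these 3 windows. They held 31 CpGs for *Map2k7*, 37 for *Jund* and 11 for *Mapk10*, against a median of 7 over all windows. A match is a description of the sequence and not a binding site.

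Among the MAP2 kinases that activate JNK, *Map2k7* (NM_001025425) was near the bottom of the scale in every control library and at several FPKM in every CSR library. It read 4.33, 2.83 and 5.25 FPKM in CSR libraries 1 to 3 and 0.208, 0.181 and 0.227 FPKM in control libraries 1 to 3. The groups did not overlap, and the lowest CSR library was far above the highest control library. Mean levels were 4.14 ± 1.22 FPKM under CSR against 0.205 ± 0.0228 in the controls (SD, n = 3 each), a ratio of 20.1 between mean levels. On the log2(FPKM + 1) scale the difference was 2.06 with a standard error of 0.25, the 23rd highest of 5657 tested transcripts. It was 3.75 with a pseudocount of 0.1 in place of 1. Without control library 3 it was 2.07. The transcript entered the test only through its CSR values, since no control library reached 1 FPKM. It was the 1 transcript in the table with all control values under 0.25 FPKM and all CSR values over 2 FPKM, bounds set after its values were seen. With the groups exchanged, 10 transcripts met the same bounds.

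*Map2k4* (NM_001030023), which encodes the other JNK-activating MAP2 kinase, did not share this pattern. It read 0.390, 1.54 and 0.462 FPKM in CSR and 2.78, 0.322 and 0.597 FPKM in control. Control library 1 was the highest of all and the groups overlapped. With 2 libraries at 1 FPKM or more, it was below the filter and was not tested. The difference of its mean log2(FPKM + 1) was -0.21. Of the FPKM of both kinases together, *Map2k7* made up 91.7, 64.8 and 91.9% in CSR libraries and 6.97, 36.0 and 27.5% in control libraries. The shares did not overlap between groups, as follows in part from the choice of *Map2k7*. The sum of both was 4.36 to 5.71 FPKM in CSR and 0.503 to 2.99 FPKM in control.

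**Figure D1:**
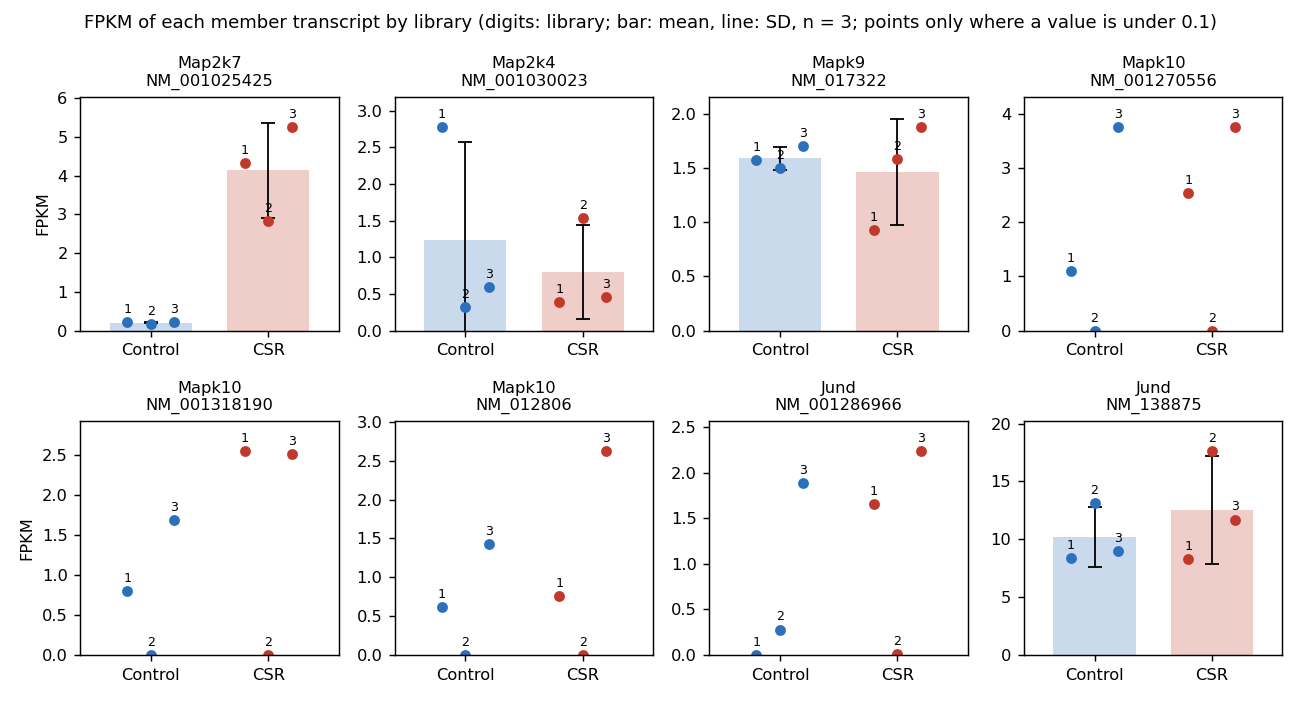
FPKM (y axis) of the 8 member transcripts in 3 control (blue) and 3 CSR (red) libraries, with library numbers as digits; bars and lines give mean and SD where all values are above 0.1 FPKM, and SD lines reaching below 0 end at the axis. *Map2k7* separates the groups, at 2.83 to 5.25 FPKM in CSR and 0.181 to 0.227 in control, while every other panel overlaps.

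The JNK genes themselves gave no such separation. *Mapk9* (NM_017322), the widely expressed JNK2 gene, had 0.925, 1.58 and 1.88 FPKM in CSR libraries and 1.57, 1.496 and 1.70 FPKM in control. The CSR range enclosed the control range. Its log2 fold change was -0.09 (standard error 0.23). The control values were close together, with an SD of 0.105 FPKM against 0.487 in CSR.

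*Mapk10*, the JNK3 gene, had 3 transcripts, and all of them were listed at 0 in CSR library 2 and in control library 2. NM_001270556 read 2.54, 0 and 3.75 FPKM in CSR and 1.10, 0 and 3.75 FPKM in control. NM_001318190 read 2.54, 0 and 2.51 FPKM in CSR and 0.795, 0 and 1.69 FPKM in control. NM_012806 read 0.759, 0 and 2.62 FPKM in CSR and 0.618, 0 and 1.43 FPKM in control. In both groups library 2 was thus the lowest and the ranges overlapped for each transcript. Summed over the 3, *Mapk10* stood at 5.84, 0 and 8.88 FPKM in CSR and 2.51, 0 and 6.87 FPKM in control. It made up between 61.5 and 86.3% of the *Mapk9* and *Mapk10* sum in the other 4 libraries. Of 508 transcripts listed at 0 in exactly 2 libraries, 119 had 1 CSR and 1 control library at 0. This pair of libraries was found in 7, and the 3 *Mapk10* transcripts are among these 7. The log2 fold changes were 0.25 (standard error 0.79) for NM_001270556 and 0.46 (standard error 0.63) for NM_001318190; the third was below the filter.

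Of the Jun family, *Jund* was measured by 2 transcripts, and NM_138875 was the most abundant transcript of the whole set. It read 8.28, 17.6 and 11.7 FPKM in CSR and 8.40, 13.2 and 8.97 FPKM in control. Library 2 was the highest in both groups, and the groups overlapped. The log2 fold change was 0.24 (standard error 0.29). The other transcript, NM_001286966, read 1.66, 0.00662 and 2.23 FPKM in CSR and 0.000966, 0.279 and 1.88 FPKM in control. CSR library 2 and control libraries 1 and 2 were low and the other 3 libraries lay between 1.66 and 2.23 FPKM, in both groups. Its log2 fold change was 0.41 (standard error 0.60). It made up 16.7, 0.0376 and 16.0% of the *Jund* sum in CSR and 0.0115, 2.07 and 17.3% in control. How the 2 overlapping transcripts of *Jund*, or the 3 of *Mapk10*, share reads depends on the authors' estimation, so values of single transcripts are less certain than the sums. The *Jund* sum was 9.94 to 17.6 FPKM in CSR and 8.40 to 13.4 FPKM in control.

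Since FPKM is per transcript length, the levels can be ordered. *Jund* NM_138875 was first in both groups, at means of 12.5 FPKM in CSR and 10.2 FPKM in control, and its range did not overlap that of the next transcript in either group. In CSR *Map2k7* came next, and in control it came last of the 8. All other neighbours in either order overlapped in range. Among them the CSR means ran from 2.09 FPKM for *Mapk10* NM_001270556 to 0.796 for *Map2k4*, although 3 of these transcripts include values listed at 0.

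In the fit over all transcripts, 1 of 6 tested member transcripts, *Map2k7*, was called higher in CSR and 0 lower. Over all 5657 transcripts 0.442% were called, 0.23% higher and 0.212% lower. The same 1 of 6 had groups that did not overlap, with CSR higher, against 8.96% of all tested transcripts. None lay wholly lower in CSR, against 12.6%. As *Map2k7* was selected on this contrast, nothing is read from these counts.

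The rest of the pathway was followed through 4 lists of 111 genes outside the set, of which 44 had a transcript and 31 transcripts were tested. limma called 0 of 31, and 2 had an unadjusted p under 0.05, *Tnik* and *Dusp1*. Both entered the test only through the group where they are high, *Tnik* through CSR and *Dusp1* through control, so a difference was built into their selection. The log2 fold change was positive for 12 and negative for 19, with a median of -0.08 against -0.06 over all tested transcripts. Groups did not overlap for 1 transcript that was higher in CSR (3.23%) and 6 that were lower (19.4%), against the 8.96 and 12.6% given above. They included *Rac1*, *Map2k2*, *Map2k5*, *Dusp1* and *Map1b*.

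**Figure D2:**
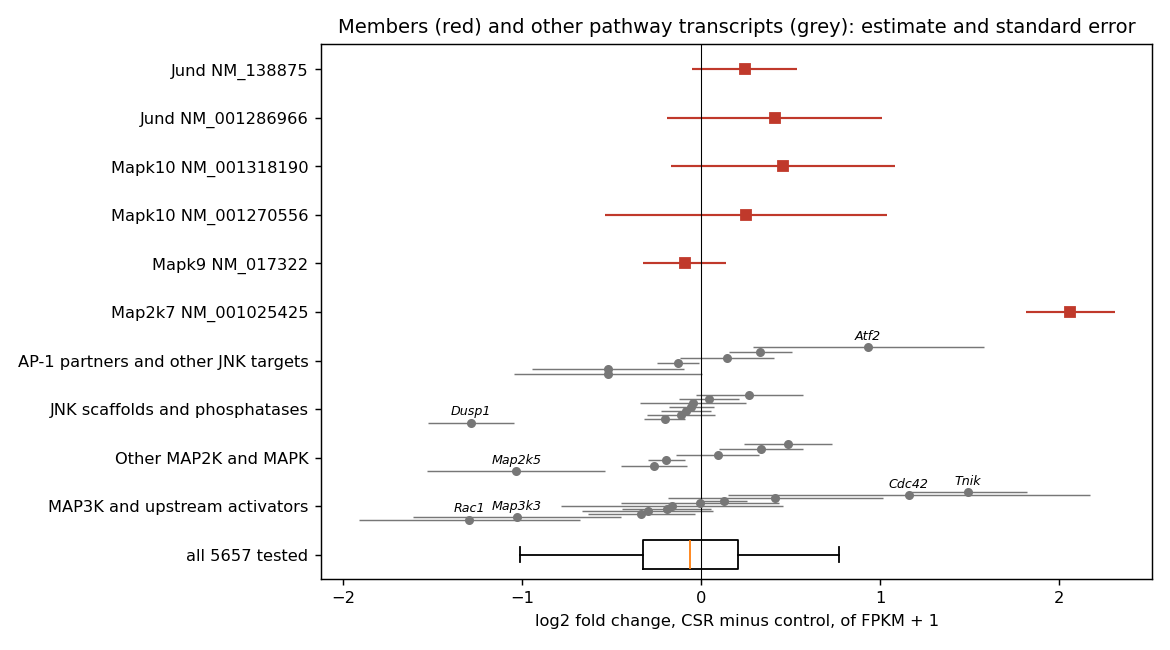
Log2 fold change of FPKM + 1, CSR minus control (x axis), with standard errors, for the 6 tested members (red), the 31 other pathway transcripts by list (grey, those beyond 0.9 named) and all 5657 tested transcripts (box: quartiles and median, whiskers: 5th to 95th percentile). *Map2k7* stands at 2.06, and the other members lie between -0.09 and 0.46.

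Upstream of the MAP2 kinases, 11 transcripts of MAP3 kinases and activators were tested, and none was called. *Tnik*, a MAP4 kinase known to activate JNK, read 1.32, 3.02 and 3.95 FPKM in CSR and 0.270, 0.187 and 0.379 FPKM in control. Its groups did not overlap, yet with a log2 fold change of 1.49 and a limma adjusted p of 0.21 it did not pass. *Map3k11*, a mixed-lineage kinase that phosphorylates both MAP2 kinases of JNK, was even across libraries at 8.39 to 9.59 FPKM in CSR and 7.21 to 8.70 in control. *Traf2*, an adaptor of tumour necrosis factor receptors, read 2.73 FPKM in CSR library 2 and 5.93 to 6.90 FPKM in the other libraries. The GTPases diverged between libraries. *Cdc42* read 20.1, 27.3 and 8.83 FPKM in CSR and 14.2, 0.633 and 20.2 FPKM in control. *Rac1* had 2.52, 4.43 and 0 FPKM in CSR and 6.01, 6.27 and 4.58 FPKM in control, without overlap and with an adjusted p of 0.392 by limma. *Map3k3* read 0, 1.91 and 4.06 FPKM in CSR and 3.48 to 4.56 FPKM in control.

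Of the parallel MAP kinase cascades, 6 transcripts were tested and none was called. *Mapk6*, an atypical MAP kinase, was the most abundant, at 54.2 to 55.9 FPKM in CSR and at 29.4, 34.7 and 58.7 FPKM in control. Control library 3 was above all CSR libraries, and without it limma called *Mapk6* higher in CSR (log2 fold change 0.77, adjusted p 0.0298). *Map2k2*, of the ERK cascade, lay lower in CSR without overlap, at 16.1 to 17.0 FPKM against 17.9 to 20.9, and did not pass (limma adjusted p 0.405). *Map2k5* read 2.94, 1.35 and 0 FPKM in CSR and 2.96 to 3.57 in control, while its substrate *Mapk7*, the ERK5 gene, read 9.22 to 11.9 FPKM in CSR and 5.66 to 10.7 in control.

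Among scaffolds and phosphatases, 8 transcripts were tested and none was called. *Dusp1*, a phosphatase that inactivates JNK and p38, had control values of 1.13, 1.72 and 1.52 FPKM and was listed at 0 in each CSR library, with a limma adjusted p of 0.143. It passed only without the mean-variance trend (adjusted p 0.0108), where the CSR values have no spread. *Dusp10*, a phosphatase with the same substrates, read 5.58 to 6.12 FPKM in CSR and 4.76 to 7.01 in control. *Gstp1*, a glutathione transferase that can bind and restrain JNK, read 9.70 to 10.96 FPKM in CSR and 10.9 to 12.8 in control. *Dusp22*, *Ppp5c* and the adaptor *Crk* also overlapped between groups, with log2 fold changes of -0.12, -0.06 and 0.27.

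Among AP-1 partners and other JNK targets, 6 transcripts were tested and none was called. *Atf2*, a JNK target that dimerises with Jun proteins, varied most between libraries, at 5.22, 4.20 and 2.13 FPKM in CSR and 0.380, 5.55 and 0.609 FPKM in control. Its groups overlapped because of control library 2. *Hsf1*, the heat shock factor, read 3.17 to 4.44 FPKM in CSR and 2.72 to 3.19 in control. *Map1b*, a microtubule-associated JNK substrate, read 5.96 to 6.58 FPKM in CSR and at least 6.69 in control, a log2 fold change of -0.13. The apoptosis genes *Bax*, listed at 0 in 2 CSR libraries and 1 control library, and *Bad*, listed at 0 in 1 CSR library, had log2 fold changes of -0.52 and -0.52.

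Transcripts whose profile over the 6 libraries was most like that of a member were found by the root-mean-square difference of log2(FPKM + 1), each centred on its own mean. A shared pattern follows from this choice and is not a result about the members. Nearest to *Map2k7* were *Ddx52*, an RNA helicase gene, at a difference of 0.15, and *Plaat5* and *H2bc1*, a testis histone gene, both at 0.26. *Ddx52* read 7.58, 4.87 and 6.33 FPKM in CSR and 0.763, 0.850 and 0.801 FPKM in control. Like *Map2k7* it was lowest of the CSR libraries in library 2, and it passed the filter only through its CSR values. Nearest to *Mapk9* was *Gimd1*, at a difference of 0.04.

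By the same choice, the profiles nearest to *Mapk10* also dropped in both libraries numbered 2. *Pik3r2*, a regulatory subunit of PI3 kinase, was nearest to NM_001270556, at a difference of 0.25. It read 2.56, 0.360 and 4.69 FPKM in CSR and 2.72, 0.243 and 4.48 FPKM in control. *Lsm4*, an RNA-processing gene and the nearest to NM_001318190 at 0.26, read 8.16, 2.66 and 8.94 FPKM in CSR and 6.05, 1.48 and 8.76 FPKM in control. In the gene order of GRCr8, *Lsm4* is the next protein-coding gene to *Jund*. Within each group, the main *Jund* transcript was highest in library 2, where *Lsm4* was lowest. *Lsm4* was picked for its likeness to *Mapk10*, so nothing is read from this opposite order. *Pnrc1*, a nuclear receptor coregulator gene, was nearest to *Jund* NM_138875 at 0.09, and read 3.28, 6.24 and 4.21 FPKM in CSR and 2.81, 5.05 and 3.51 FPKM in control.

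**Figure D3:**
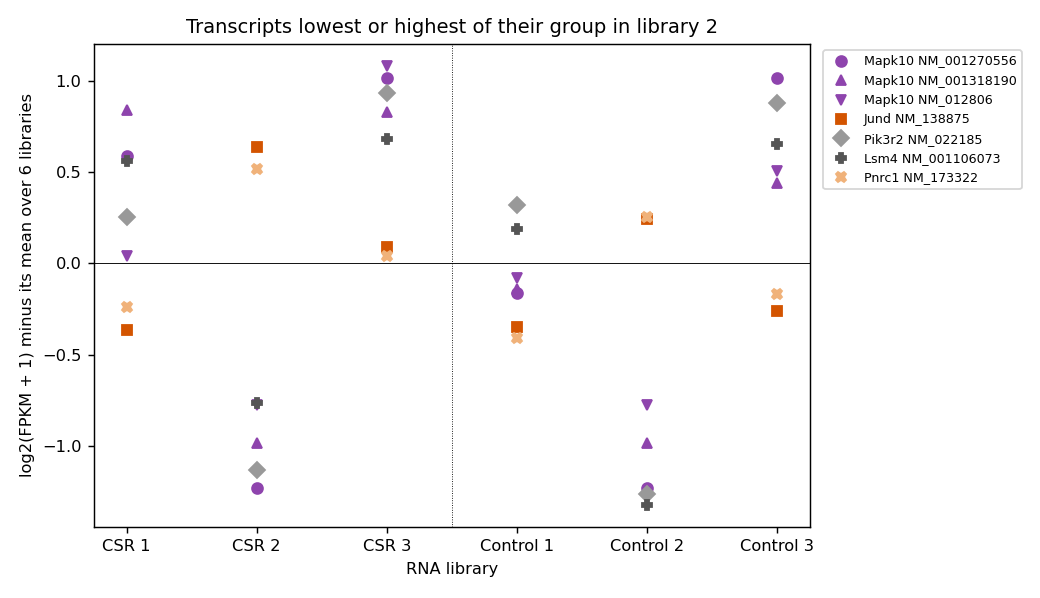
Log2(FPKM + 1) minus the mean of each transcript over 6 libraries (y axis) by library (x axis), for the *Mapk10* transcripts (purple), *Jund* NM_138875 (orange) and the transcripts named as most like them. *Mapk10*, *Pik3r2* and *Lsm4* were lowest of their group in CSR library 2 and control library 2, where *Jund* and *Pnrc1* were highest.

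Genes next to *Map2k7* were read as a measure that its selection did not use. In the gene order of GRCr8, *Snapc2*, *Ctxn1* and *Timm44* are the second to the fourth protein-coding genes on its higher-coordinate side, and none of the 4 nearest on the other side matched a transcript of the table. *Snapc2*, a subunit of the small nuclear RNA activating complex, read 10.2, 10.4 and 7.78 FPKM in CSR and 10.5, 10.6 and 10.6 FPKM in control. Its groups did not overlap but were close, with a log2 fold change of -0.15 (standard error 0.14, limma adjusted p 0.584). *Timm44*, of the mitochondrial import machinery, read 34.3 to 38.5 FPKM in CSR and 35.5 to 36.9 in control, and its log2 fold change was 0.00 (standard error 0.08). *Ctxn1* read 2.25, 7.98 and 5.30 FPKM in CSR and 1.65, 3.24 and 2.23 FPKM in control (log2 fold change 0.78, standard error 0.41, limma adjusted p 0.405), and its groups overlapped.

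**Figure D4:**
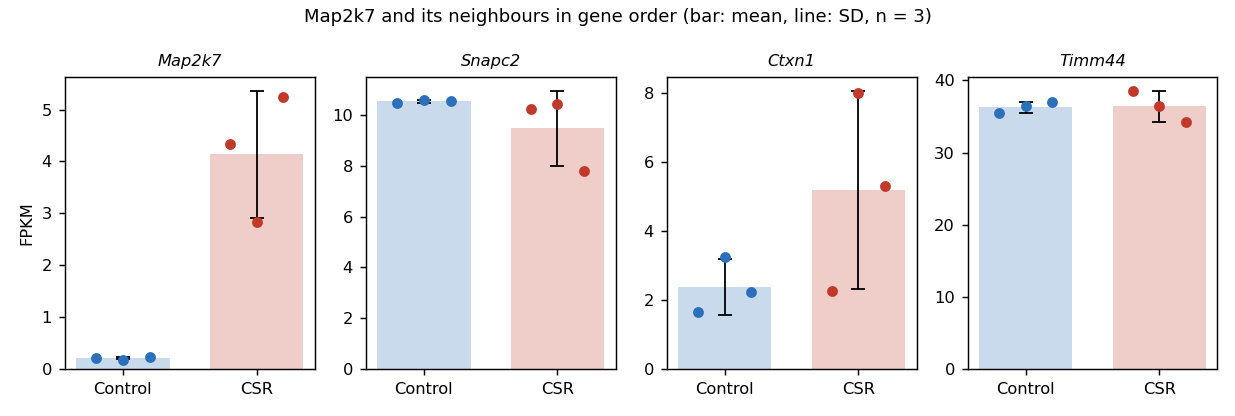
FPKM (y axes, each on its own scale) of *Map2k7* and the 3 measured genes nearest to it, in control (blue) and CSR (red) libraries; points are libraries, bars means and lines SD (n = 3). *Map2k7* separated the groups with CSR higher and *Snapc2*, within 7.78 to 10.6 FPKM, with CSR slightly lower, while *Timm44*, within 34.3 to 38.5 FPKM, and *Ctxn1*, whose CSR mean was 2.18 times the control mean, overlapped.

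Levels of cell type markers moved between libraries too. The summed level of 14 elongating spermatid transcripts was 20675 to 23984 FPKM in CSR and 13182, 14668 and 22613 FPKM in control libraries 1 to 3. In control library 3, whose spermatid sum lay within the CSR range, *Map2k7* read 0.227 FPKM. A relation between these values was not tested. Sums of 12 round spermatid transcripts were 740 to 853 FPKM in CSR and 697 to 798 in control. Sums of 9 spermatocyte transcripts were 246 to 305 FPKM in CSR and 192 to 288 in control, and those of 7 Sertoli cell transcripts 83.0 to 84.4 and 91.7 to 99.3. The 6 Leydig cell transcripts summed to 71.8 to 121 FPKM in CSR and 70.5 to 92.3 in control, the 3 spermatogonial ones to 26.6 to 38.9 and 29.0 to 33.9, and the 7 peritubular ones to 17.5 to 24.6 and 20.9 to 26.7. Sertoli cell sums were lower in CSR without overlap. *Ctsl*, the most abundant of these markers, read 30.3 to 33.0 FPKM in CSR and 39.9 to 41.1 in control. *Shbg* was also lower without overlap, while *Inha*, *Cldn11*, *Sox9*, *Wt1* and *Gata4* overlapped. None was called.

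Sums are carried by abundant markers, and single markers differed from them. Of the 9 spermatocyte transcripts, *Ccna1*, a meiotic cyclin, was called higher in CSR, at 10.7, 5.59 and 6.06 FPKM against 0.875, 0.841 and 0.735 (log2 fold change 2.17, limma adjusted p 0.0421). It passed the filter only through its CSR values, since no control library reached 1 FPKM, so a difference was built into its selection. *Pgk2* was also higher without overlap, at 5.42 to 10.98 FPKM against 2.15 to 3.79, while *Hormad1* and *Meiob* were lower without overlap; none of these 3 passed, nor did *Hspa2*, at 82.3 to 96.0 FPKM against 73.0 to 81.6. Among the 6 tested peritubular markers, 5 had lower values on the log2 scale in CSR, and the median change was -0.72 against -0.06 over all tested transcripts. *Myh11*, the most abundant, went the other way without overlap, at 14.7 to 17.0 FPKM against 10.8 to 14.2, and did not pass. Of the 5 lower ones, *Des*, *Col1a1*, *Col1a2* and *Pdgfra* included CSR values listed at 0, and *Tagln* changed by -0.16. *Col1a1*, a collagen gene, was called lower (limma adjusted p 0.0421) and was listed at 0 in each CSR library against 2.14 to 2.73 FPKM in control, through which alone it passed the filter. Of immune markers 2 were measured and summed to at most 1.45 FPKM in any library. *Hba-a1*, a globin marker of blood, stood at 3.02, 17.5 and 25.5 FPKM in CSR libraries and at 5.32, 27.4 and 28.9 in controls, and *Hbb* was above 0 only in CSR library 2. No epididymis marker was matched. The part of cell composition in the values of *Map2k7*, *Mapk10* and *Jund* was not tested.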

How the data were processed

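Testis RNA-seq was analysed for 3 libraries of the chronic sleep restriction (CSR) group and 3 control libraries. Values are FPKM (fragments scaled to transcript length and library size) of RefSeq transcripts, as deposited by the authors. Trimmomatic, HISAT2 and StringTie were run on build rn6, per the submitters' processing notes. The sources used here do not give versions, settings or how transcripts were selected. Read depth is unknown. Accessions were matched to symbols through the RefSeq table of assembly GRCr8, which named 6907 of 7016 transcripts.

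The 5657 transcripts that reached 1 FPKM in 3 or more libraries were tested together on log2(FPKM + 1) with limma 3.58.1 (R 4.3.3), using a mean-variance trend, Benjamini-Hochberg adjustment and a threshold of 0.05; the fit was checked on simulated data. Fold changes on this scale understate the change of low transcripts. The members and lists were chosen with earlier results of these data known. Named pathway transcripts are, per list, the 3 with the highest mean and the 2 with the largest positive and 2 with the largest negative log2 fold change; some that the rule names are not reported here. Patterns were compared by the root-mean-square difference of centred log2(FPKM + 1) profiles. Alternatives covered the pseudocount, filter, scaling, variance model, single libraries and a replicate block. The methylation libraries were not used here, since their rn6 positions were not tied to genes.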

Additional observations from a re-analysis of the deposited data

How the results depend on the processing

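Over all tested transcripts the count of 25 calls was 11 with a pseudocount of 0.1, 11 with a filter of 5 FPKM, 16 among transcripts above 0 in all libraries, 77 without the mean-variance trend, 38 with array weights and 7 with control libraries 1 and 2 averaged. Leaving out 1 library gave 4 to 259 calls: 14 without CSR library 2, 7 without CSR library 3, 8 without control library 1, 4 without control library 2 and 259 without control library 3. The split of 13 higher and 12 lower became 11 and 6 with quantile normalization, 7 and 4 with the filter of 5 FPKM and 12 and 4 among transcripts above 0 in all libraries. It became 17 and 60 without the trend, 15 and 23 with array weights and 13 and 23 with no filter. With the replicate number as a block 0 were called and 715 had an unadjusted p under 0.05. Deviations of libraries with the same number correlated at 0.032, 0.009 and 0.042 across transcripts, so the numbers were not taken to pair libraries. The cause of these changes was not tested. The stricter filters also test fewer transcripts, and the averaged or left-out libraries leave fewer samples.

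Of the other pathway transcripts, 1 was called without the mean-variance trend (*Dusp1*), and leaving out 1 library gave 0 to 1 (*Mapk6*, without control library 3). The log2 fold change of *Map2k7* ranged from 1.91 to 3.75 over the 16 alternatives that gave it a value, and a filter of 5 FPKM removes it. *Map2k7* was called in only 9 of these 16. Its sign was fixed by its selection on this contrast. *Mapk10* NM_001270556 ranged from -0.30 to 0.93 and *Jund* NM_138875 from -0.02 to 0.48. The depth of the libraries is unknown, so its limit on these values cannot be given.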

Other observations

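Some pathway transcripts fell below the filter on low values and are given here as values only, chosen after they were seen. *Dusp16*, a phosphatase that acts on JNK, read 4.09, 0.592 and 3.52 FPKM in CSR libraries 1 to 3 and 0.325, 0.416 and 0.574 FPKM in control libraries 1 to 3, with no overlap. *Egr1*, an immediate early gene, had 0.657, 0.784 and 0.959 FPKM in CSR and 0.246, 0.0441 and 0.366 FPKM in control, also without overlap. *Spag9*, a JNK scaffold first described in testis, read 1.21 and 1.34 FPKM in control libraries 1 and 2 and was listed at 0 in control library 3 and every CSR library. *Map3k7*, the TAK1 kinase gene, stood at 0, 0.532 and 0 FPKM in CSR and 0.768, 0.919 and 0.778 FPKM in control, lower without overlap. *Flna*, from the list of scaffolds and phosphatases, was also lower without overlap. It read 0, 0.317 and 0 FPKM in CSR and 0.848, 1.47 and 0.530 FPKM in control.

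Genes beside the unmatched members were measured in part. In the gene order of GRCr8, *Eqtn*, the acrosomal gene second from *Jun*, was called higher, as were 0.23% of all tested transcripts. It read 30.1, 30.0 and 14.2 FPKM under CSR against 1.44, 2.27 and 2.00 FPKM in the controls (log2 fold change 3.09, limma adjusted p 0.0269). *Frey1*, a spermatid gene, and *Cry2*, a clock gene, lie on either side of *Mapk8ip1*. *Cry2* had a log2 fold change of 0.15. *Frey1* read 43.3, 48.6 and 62.3 FPKM in CSR and 18.4, 22.8 and 49.7 FPKM in control, with overlap through control library 3 (log2 fold change 0.86, limma adjusted p 0.378). *Prdx2*, a peroxiredoxin gene next to *Junb*, read 21.3 to 28.5 FPKM in CSR and 12.3 to 16.3 in control and did not pass (limma adjusted p 0.155). *Get3*, near *Junb*, was also higher without overlap (log2 fold change 0.23). Lower without overlap were *Hook1* near *Jun*, *Rnaseh2a* near *Junb* and *Lrrc18* near *Mapk8*, with log2 fold changes of -0.25, -0.20 and -0.26. None of these passed. Over all tested transcripts, 8.96% were higher and 12.6% lower without overlap.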
